A study of Homo sapiens with 2 samples.

Results

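The genes described here are 50 genes of the G2 phase and mitosis, a named list of cell cycle genes that runs from *CDK1* and the B-type cyclins to the proteins of the spindle, the kinetochore, and the cleavage furrow. They were taken by gene name from the 33538 genes listed in both libraries of this scRNA-seq study, and each of the 50 names had 1 row. Both libraries came from HCT116, an established human colon cancer cell line grown in McCoy's 5A medium with FBS. One library was mock-treated, and the other was treated with decitabine (DAC), a cytidine analog that traps DNA methyltransferases in DNA, which lowers methylation over cell divisions. The drug was given at 0.5 μM on days 1 and 3, the medium was replaced by one without DAC on day 5, and cells were collected by trypsin on day 7. With 1 library per condition there was no replicate, so no test between conditions was possible, and intervals given here are 95% intervals for counting error only. A difference between the cultures or library preparations other than DAC cannot be told apart from the treatment.

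Cells build up the transcripts of these genes through G2 and destroy many of the proteins at the exit from mitosis. CDK1 with cyclin B drives a cell into mitosis, Aurora and Polo-like kinases build the spindle and correct its attachments, and the anaphase-promoting complex (APC/C) ends mitosis by marking cyclin B for destruction. Most of these promoters are known to be held down in resting and G1 cells and switched on late in the cycle, through an element called CHR that binds the DREAM and MuvB-FOXM1 complexes, often next to CCAAT boxes bound by NF-Y.

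Promoter sequences of RefSeq (GRCh38.p14, 250 bases before to 50 bases after the start) were available for 42 of the 50 genes and were searched on both strands for CHR (TTTGAA or TTCGAA) and CCAAT. Among the genes not shown, *TACC3* had no match to either element and *CCNB1* had none to CHR. The 6 shown here are the 120 bases before the start of genes named below, and each holds both elements there. They are written 5′ to 3′ along the gene, with matches to CHR and CCAAT or their reverse complements in capitals.
CCNB2: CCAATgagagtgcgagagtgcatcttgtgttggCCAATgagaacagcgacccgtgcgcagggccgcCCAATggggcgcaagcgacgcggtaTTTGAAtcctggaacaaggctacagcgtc
CDC20: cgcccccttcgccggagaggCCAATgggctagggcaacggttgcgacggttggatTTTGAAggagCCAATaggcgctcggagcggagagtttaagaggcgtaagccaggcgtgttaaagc
CDCA8: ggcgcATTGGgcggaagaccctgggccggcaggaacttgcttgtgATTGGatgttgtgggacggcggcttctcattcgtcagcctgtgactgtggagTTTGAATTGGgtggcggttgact
GTSE1: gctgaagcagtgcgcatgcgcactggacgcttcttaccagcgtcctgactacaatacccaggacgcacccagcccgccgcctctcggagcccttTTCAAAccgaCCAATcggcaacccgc
MKI67: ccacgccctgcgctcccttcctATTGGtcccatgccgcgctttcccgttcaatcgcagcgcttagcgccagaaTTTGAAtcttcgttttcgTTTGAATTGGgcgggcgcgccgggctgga
CKS1B: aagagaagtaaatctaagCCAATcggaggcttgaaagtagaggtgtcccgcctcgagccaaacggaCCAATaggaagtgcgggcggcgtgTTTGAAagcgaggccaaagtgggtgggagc
They lie at chr15:59105026-59105145, plus strand for *CCNB2*, chr1:43358861-43358980, plus strand for *CDC20*, chr1:37692396-37692515, plus strand for *CDCA8*, chr22:46296750-46296869, plus strand for *GTSE1*, chr10:128126424-128126543, minus strand for *MKI67*, and chr1:154974561-154974680, plus strand for *CKS1B*. Each of the 6 has a CHR match, and *CCNB2* and *CKS1B*, which had about the same level in both libraries, carry it beside CCAAT boxes as *CDC20* does. In *CDCA8* and *MKI67* a CHR match and a reversed CCAAT box join, and the capitals there mark both. CHR was present in 31 of the 42 promoters (73.8%), against 16.6% of 27305 promoters of the same length and 3 of 31 promoters of S-phase genes. A CHR lay within the last 50 bases before the start in 12 of the 42 (28.6%), against 2.45% of all promoters. CCAAT was present in 29 of the 42 (69.0%), against 35.7% of all promoters and 22 of the 31 of S-phase genes (71.0%), and 26 of the 42 had both elements (61.9%, against 6.58%). The median log2 ratio of DAC-treated to mock-treated level was 1.14 over the 31 genes with a CHR match, 0.88 over the 11 without one, and 1.24 over the 8 with no promoter in the table, and the values of the first and second sets overlapped widely (-0.01 to 2.31 and 0.15 to 1.79). These are matches of letters in a window, and binding was not measured.

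The deposited tables held unique molecular identifiers (UMIs), which count each captured transcript once, in 1783 cells of the mock-treated and 1751 of the DAC-treated library. Totals were 49911689 and 59046165 UMIs, with medians of 27899 and 35340 UMIs per cell. Before any drawing, the 50 genes together took 148271 UMIs (0.297%) of the mock-treated library and 344336 (0.583%) of the DAC-treated library. To compare cells at one depth, 10000 UMIs were drawn at random from every cell, which left out 395 mock-treated cells and 458 DAC-treated cells with fewer and kept 1388 and 1293. All levels below are UMIs per cell at this depth unless stated. Of the cells kept, 25.8% of mock-treated and 46.0% of DAC-treated cells had more than 20% mitochondrial UMIs. All 6 epithelial markers were detected in both libraries, with single-marker sums from 1152 to 252746 UMIs over the library. Of the 4 immune markers, 2 in mock-treated and 4 in DAC-treated cells were detected, with sums of 18 and 199 UMIs, and *PTPRC* and *CD3E* were at 0 in mock-treated cells. Of the 3 endothelial markers, 1 and 3 were detected, with sums of 6 and 113 UMIs, *PECAM1* and *CDH5* being at 0 in mock-treated cells. Of the 4 fibroblast markers, 1 and 4 were detected, with *COL1A1* providing 533 of 533 mock-treated UMIs and 1112 of 1156 DAC-treated UMIs, while *COL1A2*, *DCN*, and *PDGFRA* were at 0 in mock-treated cells. The part of these markers in the results was not tested.

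DAC-treated cells carried more transcripts of nearly all of the 50 genes. The genes summed to 25.1 UMIs per mock-treated cell and 54.5 UMIs per DAC-treated cell, a ratio of 2.17 (95% interval 2.14 to 2.20). The median gene had a log2 ratio of 1.12, and the values ran from -0.01 for *CKS1B* to 2.31 for *CDCA3*. A gene was counted as higher in DAC-treated cells with a ratio at least 25% above 1 and as lower with a ratio of 0.8 or less. By this rule 47 of the 50 genes were higher and 0 were lower. Over all 9450 genes that reached 100 UMIs in at least 1 library at this depth, 43.4% were higher and 21.7% were lower. At 1.5-fold, 45 of the 50 were higher and 0 were lower, against a background of 28.2% and 13.0%. Scaling by the median of ratios over all cells left 40 of the 50 genes higher by the first rule. The median of all genes was itself 0.22 above 0 on the log2 scale, and 47 of the 50 genes lay above that median. The 3 genes short of the rule were *CKS1B*, *LBR*, and *CCNB2*, and the same scaling put *CCNB2* and *CKS1B* below 0. The whole interval of the ratio was above 1 for 48 genes, the exceptions being *CKS1B* and *LBR*.

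**Figure D1:**
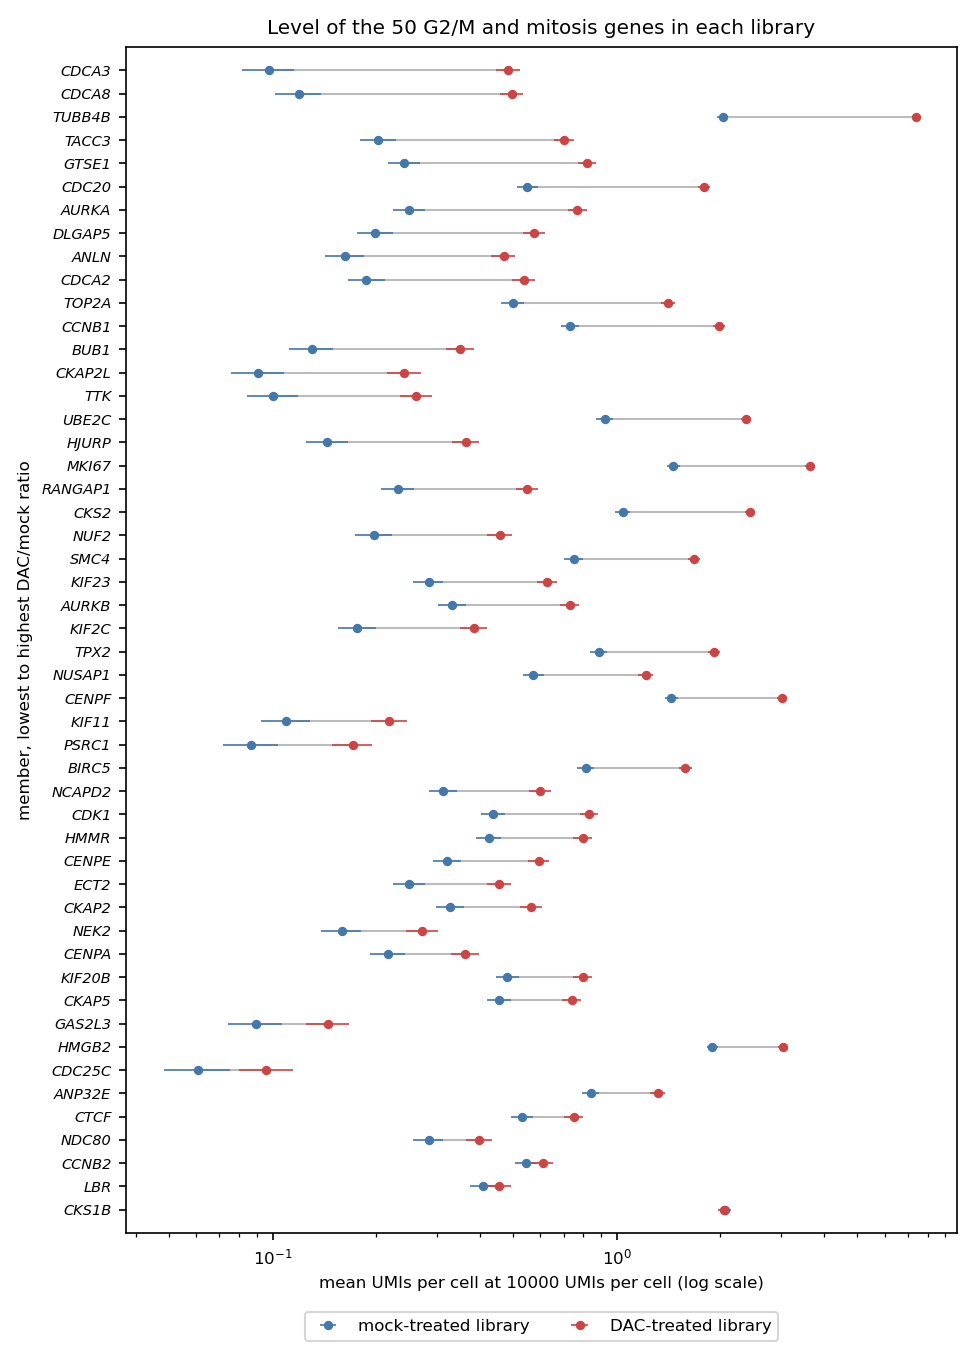
Mean UMIs per cell of each of the 50 genes at 10000 UMIs per cell (log scale), in the mock-treated library (blue) and the DAC-treated library (red), with exact Poisson 95% intervals for counting error, genes ordered by ratio. The red point lies to the right of the blue point for 49 genes, farthest for *CDCA3* (0.0973 and 0.483), and the points of *CKS1B* (2.07 and 2.05) fall on each other.

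The cyclin-dependent kinase group held both clearly higher levels and the smallest differences. *CDK1* (chr10:60778331-60794852, hg38), the kinase that starts mitosis, had 0.437 UMI per mock-treated cell and 0.831 UMI per DAC-treated cell, a ratio of 1.90 (1.72 to 2.11). Its partner *CCNB1* (chr5:69167135-69178245) went from 0.731 to 1.98 UMIs, a ratio of 2.71 (2.52 to 2.92). The second B-type cyclin, *CCNB2* (chr15:59105126-59125045), had 0.544 and 0.609 UMI, a ratio of only 1.12 (1.01 to 1.24), so the cyclins B differed in their ratios by more than counting error. The subunits that dock CDK1 to its substrates also went apart. *CKS1B* (chr1:154974653-154979251) had 2.07 and 2.05 UMIs per cell (ratio 0.990, 0.939 to 1.04), whereas *CKS2* had 1.04 and 2.43 (ratio 2.34, 2.20 to 2.50). *CDC25C*, the phosphatase that activates CDK1, was the rarest of the 50 genes, with 84 UMIs in all mock-treated cells and 124 in all DAC-treated cells (ratio 1.58, 1.19 to 2.12).

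The 8 genes of the kinase and checkpoint group had ratios from 1.71 for *NEK2* to 4.16 for *CDCA8*, and both APC/C genes were higher in DAC-treated cells. *UBE2C* (chr20:45812576-45816957), the ubiquitin-conjugating enzyme of the APC/C, had 0.921 UMI per mock-treated cell and 2.37 per DAC-treated cell, a ratio of 2.57 (2.41 to 2.75). *CDC20* (chr1:43358981-43363203), which activates the complex at anaphase, had 0.550 and 1.79 UMIs, a ratio of 3.26 (3.00 to 3.54). *CDCA3*, a ubiquitin ligase adaptor known as trigger of mitotic entry, had 135 UMIs over all mock-treated cells and 624 over all DAC-treated cells and the highest ratio of the list, 4.96 (4.11 to 6.02). All 8 genes of the kinase and checkpoint group were at least 1.5-fold higher. *TPX2* (chr20:31739271-31801805), which activates Aurora A on spindle microtubules, had the most UMIs among them, 0.886 and 1.91 per cell (ratio 2.16, 2.02 to 2.32), and *AURKA* itself had 0.249 and 0.767 (3.08, 2.72 to 3.49). The chromosomal passenger complex, which corrects wrong attachments, was uneven. Its borealin subunit *CDCA8*, at 0.119 and 0.495 UMI, had a ratio of 4.16 (3.504 to 4.97), against 2.19 (1.96 to 2.46) for its kinase *AURKB* and 1.95 (1.81 to 2.10) for survivin, *BIRC5*. The spindle checkpoint kinases *BUB1* and *TTK* had ratios of 2.71 and 2.61, and the centrosome kinase *NEK2* had 1.71.

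At the kinetochore, where chromosomes meet microtubules, all 7 genes were higher by the rule. *CENPF* (chr1:214603185-214664574), a large protein of the outer kinetochore, had 1.44 and 3.01 UMIs per cell, a ratio of 2.09 (1.98 to 2.21). *NUF2* and *NDC80* are partners in one complex. *NUF2* had a ratio of 2.32 (2.01 to 2.69), and *NDC80*, at 0.284 and 0.398 UMI, had 1.40 (1.23 to 1.60). The centromeric histone *CENPA* had 1.68 and its chaperone *HJURP* had 2.52, so partners within the kinetochore did not keep one ratio. Of the 14 spindle genes, all were at least 1.5-fold higher, with *TUBB4B*, a beta-tubulin, in front by level. *TUBB4B* (chr9:137241287-137243707) had 2.03 UMIs per mock-treated cell and 7.41 per DAC-treated cell, a ratio of 3.65 (3.501 to 3.81), and was detected in 70.0% and 95.1% of cells. The microtubule-stabilizing *TACC3* and *GTSE1*, a protein that binds microtubule tips, came next by ratio but not by level, *TACC3* with 0.202 and 0.701 UMI (3.46, 3.03 to 3.98) and *GTSE1* with 0.241 and 0.820 UMI (3.40, 3.00 to 3.85). The lowest ratios of the group belonged to *GAS2L3* (1.62) and *CKAP5* (1.63). The 3 cytokinesis genes, whose proteins build the contractile ring and midbody, were all higher. *KIF23* (chr15:69414246-69448427) had 0.284 and 0.627 UMI (2.21, 1.96 to 2.499), and *ECT2* and *ANLN* had ratios of 1.83 and 2.89.

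The chromosome group covered the proteins that fold, coat, or repack chromosomes. *MKI67* (chr10:128096659-128126423), the Ki-67 antigen that coats mitotic chromosomes, had 1.46 and 3.63 UMIs per cell, a ratio of 2.49 (2.36 to 2.62). *TOP2A*, which untangles sister chromatids, had a ratio of 2.82, and the condensin subunits *SMC4* and *NCAPD2* had 2.23 and 1.91. *HMGB2* (chr4:173331376-173334432), a chromatin protein abundant in dividing cells, had 1.90 and 3.04 UMIs and a smaller ratio of 1.60 (1.53 to 1.68). *CTCF* and *LBR*, which organize chromatin and the nuclear envelope in all cells, were at the low end of the list. *CTCF* had 0.531 and 0.751 UMI (1.41, 1.28 to 1.56), and *LBR* had 0.408 and 0.454 UMI (1.11, 0.990 to 1.252). *TUBB4B*, *HMGB2*, and *CKS1B* have close paralogs or pseudogenes, and the sources used here do not state how reads that match several copies were treated.

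The cells were then divided without using any of the 50 genes, to set how many cells were called G2/M beside how much each carried. Each cell was scored by 39 other mitotic genes, among them *PLK1*, *CCNA2*, and *ASPM*, and was called G2/M with 8 UMIs or more, the cut that best parted the pooled cells of both libraries. This is a call from transcripts and not from DNA content. The scoring genes themselves had a median log2 ratio of 1.21 over all cells. A rise of these genes in each cell would also carry cells past the fixed cut. The call cannot tell this from more cells in G2/M. G2/M was called in 382 of 1388 mock-treated cells (27.5%, exact 95% interval 25.2 to 30.0%) and in 903 of 1293 DAC-treated cells (69.8%, 67.3 to 72.3%), a difference of 42.3 percentage points (38.8 to 45.7). Without the random draw, on UMIs per 10000 in all deposited cells, the shares were 26.9% and 68.1%. Near the cut, within 20% of it, lay 36 mock-treated and 78 DAC-treated cells. Scores of 0 to 2 UMIs were found in 52.3% of mock-treated cells and 11.99% of DAC-treated cells.

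**Figure D2:**
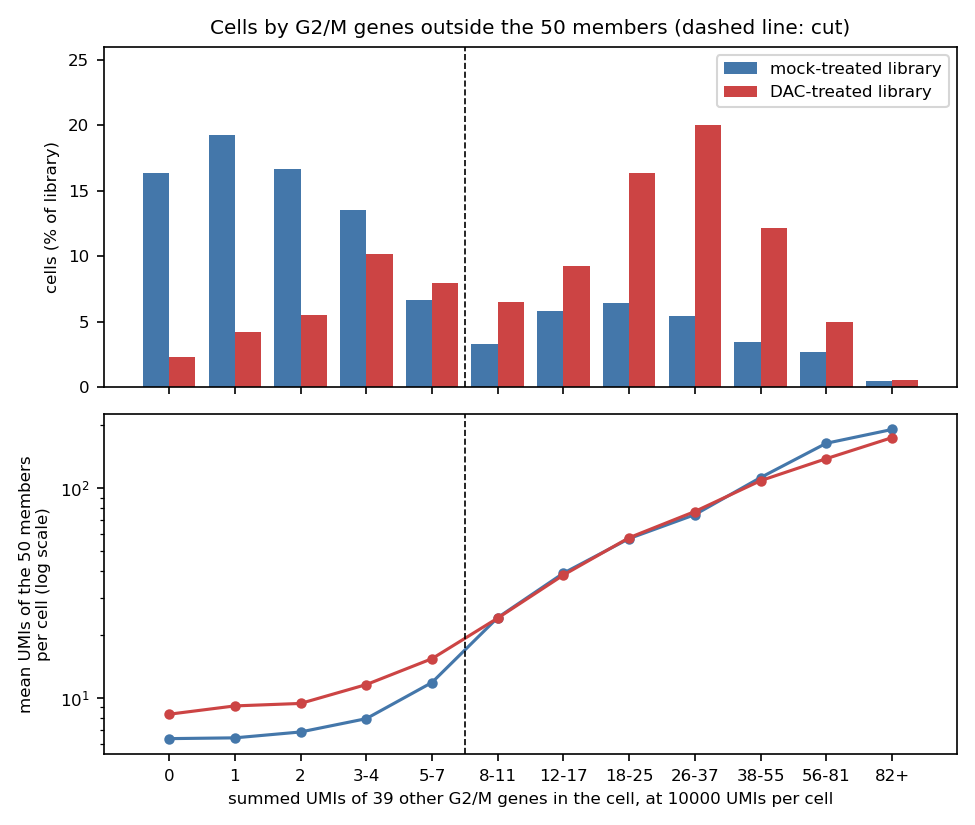
Share of cells (%) by UMIs of the 39 scoring genes, and mean UMIs of the 50 genes per cell at each score (log scale), in both libraries, the dashed line marking the cut, at 10000 UMIs per cell. Mock-treated cells pile up at scores of 0 to 2 (52.3%), DAC-treated cells at 18 and above, and at scores of 18 to 25 the 50 genes had 57.3 and 57.9 UMIs per cell.

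The other cells were divided further by 42 S-phase genes. Cells called S, which by this order are those not called G2/M, made up 7.35% of all mock-treated and 6.65% of all DAC-treated cells. They were 102 of the 1006 mock-treated cells outside G2/M (10.1%, 8.34 to 12.2%) and 86 of the 390 DAC-treated ones (22.1%, 18.03 to 26.5%). The S-phase cut was also passed by 297 of the 382 mock-treated and 830 of the 903 DAC-treated G2/M cells, so that cells called G2/M mostly carried S-phase transcripts too. Cells low in both programs made up 65.1% of mock-treated and 23.5% of DAC-treated cells. The 50 genes had a mean of 72.1 UMIs in mock-treated G2/M cells and 73.0 in DAC-treated ones, and a median of 26 and 28 of the 50 genes were detected in such a cell. They had 11.4 and 16.2 UMIs in an S cell and 6.83 and 10.3 UMIs in a cell low in both. The 50 genes were thus far higher in cells with a high score of the other mitotic genes. Since S cells were taken only from those below that cut, these values do not separate a G2/M label from one of cycling cells in general.

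**Figure D3:**
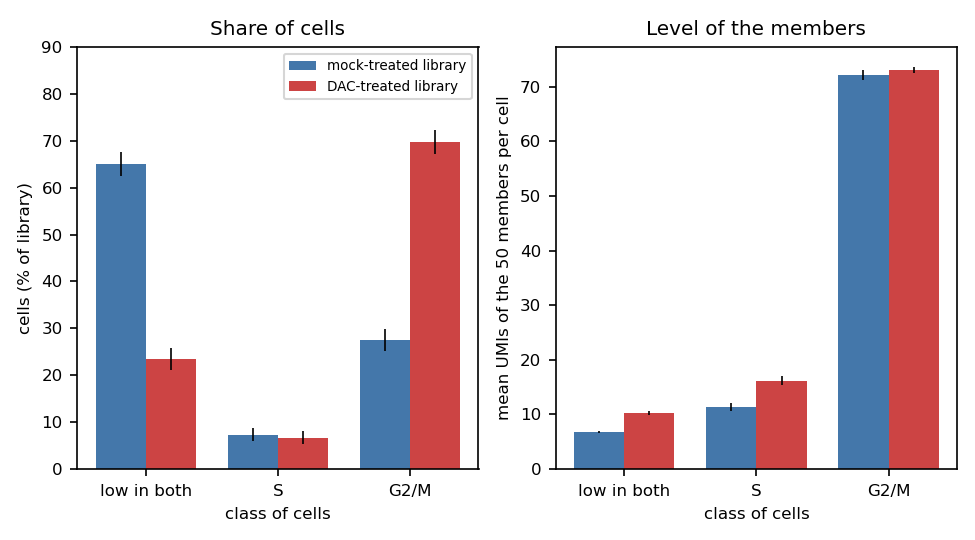
Share of cells in each class (%, exact 95% intervals) and mean UMIs of the 50 genes per cell in each class, for mock-treated and DAC-treated cells at 10000 UMIs per cell. The G2/M class holds 27.5% of mock-treated and 69.8% of DAC-treated cells, whereas the mean level of the 50 genes in it was 72.1 and 73.0 UMIs (medians 59 and 69).

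Across the whole list, the share of cells called G2/M took most of the difference in level. Of the 29.4 UMIs per cell between the libraries, the split assigned 26.7 UMIs (91.0%) to the larger share of these cells. It assigned 0.445 UMI (1.52%) to the level within them and 2.20 UMIs (7.48%) to the level in other cells. A rise of the whole program in each cell that moved cells past the cut would also count as share here. With 1007 UMIs per cell the share gave 67.2% and other cells 33.4%, and with a cut 3 times higher they gave 74.7% and 34.9%. Over the other settings of depth, cells, and cut, the share gave 78.8 to 95.1% and other cells 5.07 to 10.99%. Over all settings, the level within G2/M cells gave -9.55% (cut 3 times higher) to 12.8% (cut 1.5 times lower). As reported, the share was the largest of the 3 terms for 49 genes. For *TUBB4B* the largest was the level within G2/M cells, at 2.18 of 5.38 UMIs, with 1.78 from the share and 1.42 from other cells. In *CCNB2* the terms pulled against each other, with 0.493 UMI from the share, -0.384 from the level within G2/M cells, and -0.0437 from other cells. The same held for *CKS1B*, with 0.890, -0.452, and -0.459 UMI, which summed to a difference of -0.0198 UMI per cell. For *HMGB2* the share gave 2.05 UMIs and the level within G2/M cells -0.917.

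**Figure D4:**
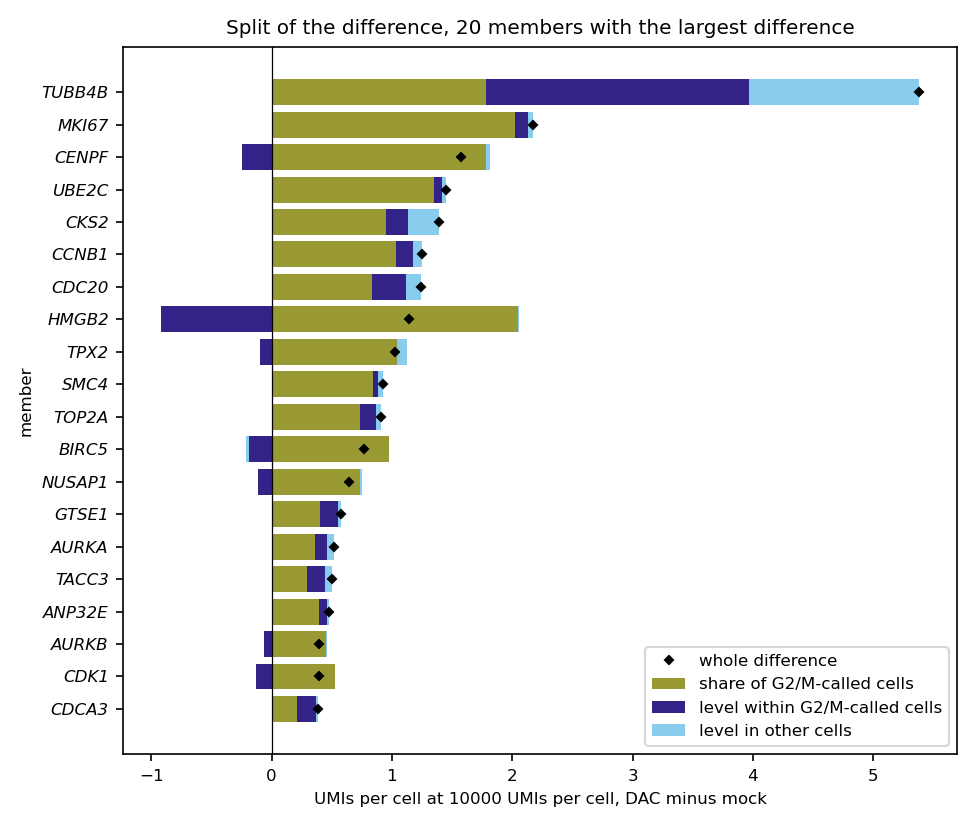
Difference in mean UMIs per cell between DAC-treated and mock-treated cells for the 20 of the 50 genes with the largest difference, split into the parts from the share of G2/M cells, the level within G2/M cells, and the level in other cells (stacked bars), with the whole difference as a diamond. *TUBB4B* (5.38 UMIs in all) stands apart with its largest part in the level within G2/M cells, and *HMGB2* has a part of -0.917 UMI there.

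Within G2/M cells, the 50 genes summed to nearly the same mean in both libraries, with a ratio of 1.01 (0.999 to 1.03), or 0.947 (0.933 to 0.961) without *TUBB4B*. The median differed more, at 59 UMIs per mock-treated G2/M cell (quartiles 40.25 and 90) and 69 per DAC-treated one (45.5 and 95.5). Single genes lay on both sides of the ratio of means. By the same rule, 8 genes were higher in DAC-treated G2/M cells and 11 were lower, against a background of 38.8% higher and 19.6% lower over 7652 genes. The median log2 ratio was -0.08, against 0.16 over all genes in the same cells. The whole interval was above 1 for 14 genes, below 1 for 18, and held 1 for 18.

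The genes higher in DAC-treated G2/M cells were led by *TUBB4B*, with 4.46 UMIs per mock-treated and 8.94 per DAC-treated G2/M cell (ratio 2.01, 1.90 to 2.11). *CDCA3* followed with 0.351 and 0.677 UMI (1.93, 1.60 to 2.34), *CDCA8* with 0.408 and 0.685 (1.68, 1.41 to 2.01), and *TACC3* with 0.628 and 0.944 (1.502, 1.30 to 1.74). *RANGAP1* (1.48), *GTSE1* (1.37), *CDC20* (1.31), and *AURKA* (1.2504) completed the 8. *AURKA* passed the rule only narrowly, and its log2 ratio within G2/M cells was below 0 in 2 of 15 other settings. Of the 14 spindle genes 3 were higher and 3 were lower, and of the 8 kinase and checkpoint genes 2 were higher and 1 was lower. The genes lower in DAC-treated G2/M cells were led by *CCNB2*, with 1.64 UMIs per mock-treated and 0.855 per DAC-treated G2/M cell (ratio 0.520, 0.467 to 0.579). *NDC80* had 0.992 and 0.556 UMI (0.560, 0.489 to 0.642), *CDC25C* 0.207 and 0.133 (0.643, 0.480 to 0.865), and *HMGB2* 6.09 and 4.21 (0.691, 0.656 to 0.728). The other 7 were *NEK2* (0.694), *GAS2L3* (0.701), *CENPA* (0.7165), *CKS1B* (0.743), *HMMR* (0.748), *KIF20B* (0.778), and *LBR* (0.789). *CDK1* had 1.43 and 1.17 UMIs (0.817, 0.737 to 0.908), while *CCNB1* had 2.46 and 2.74 (1.11, 1.03 to 1.202). The proliferation marker *MKI67*, at 4.87 and 5.09 UMIs, had a ratio of 1.05 whose interval (0.991 to 1.105) held 1.

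**Figure D5:**
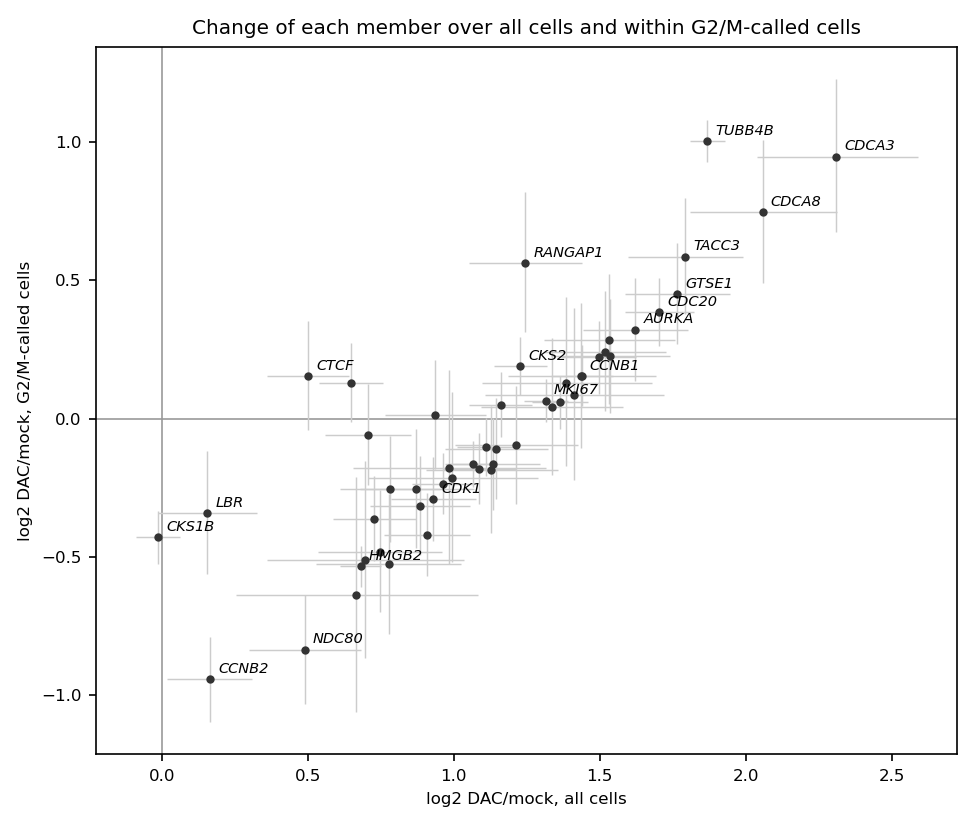
Log2 ratio of DAC-treated to mock-treated level within G2/M cells against that over all cells, for each of the 50 genes at 10000 UMIs per cell, with 95% intervals for counting error as grey lines. Values over all cells run from -0.01 to 2.31, whereas those within G2/M cells lie on both sides of 0 with a median of -0.08, *TUBB4B* and *CDCA3* at the top and *CCNB2* at the bottom.

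DAC-treated G2/M cells also had a higher score of the other mitotic genes, with a median of 27 UMIs against 23 in mock-treated G2/M cells, so the 50 genes were compared at like scores. From a score of 8 up to 55, the sums of the 50 genes were close, as 24.1 and 23.9 UMIs per cell at scores of 8 to 11, 39.2 and 38.4 at 12 to 17, 74.6 and 77.2 at 26 to 37, and 112 and 108 at 38 to 55. At scores of 56 to 81, mock-treated cells had 163 UMIs and DAC-treated cells had 138, over 37 and 64 cells. Without *TUBB4B* the sum was lower in DAC-treated cells in each of these ranges, as with 22.1 and 18.7 UMIs at 8 to 11, 36.6 and 32.9 at 12 to 17, 70.1 and 68.1 at 26 to 37, and 104.9 and 96.1 at 38 to 55. The score itself kept *KPNA2*, with 0.884 UMI per mock-treated and 3.53 UMIs per DAC-treated cell over all cells. Its log2 ratio within G2/M cells, 1.05, was the highest of the scoring genes. Like scores without *KPNA2* were not compared. In 3 ranges of the score, 8 to 17, 18 to 37, and 38 or more, 7 genes were higher in DAC-treated cells each time and 17 were lower each time, counting any difference in the mean, against a background of 40.4% and 24.0% of 7652 genes. The 7 were *CDCA3*, *CDCA8*, *CTCF*, *GTSE1*, *RANGAP1*, *TACC3*, and *TUBB4B*. The ratio of *TUBB4B* went from 2.23 in the lowest range to 2.15 and 1.60, and that of *CDCA8* from 2.21 to 1.82 and 1.30. Among the 17 were *CCNB2*, with ratios of 0.304, 0.562, and 0.460, *NDC80*, with 0.537, 0.472, and 0.577, and *HMGB2*, with 0.470, 0.657, and 0.715. *CDC20* was higher in DAC-treated cells in the lower ranges, with 0.756 and 1.05 UMIs and then 1.38 and 2.32, but not in the highest, with 4.30 and 3.93.

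Outside G2/M, the 50 genes summed to 7.29 UMIs per mock-treated cell and 11.6 per DAC-treated cell, a ratio of 1.59 (1.53 to 1.65). *TUBB4B* alone had 1.11 and 3.87 of these UMIs, and without it the ratio was 1.246 (1.19 to 1.30). The DAC-treated cells among them lay nearer the cut, with scores of 3 to 7 in 60.3% of 390 cells against 27.8% of 1006 mock-treated cells. At like scores below the cut, the 50 genes had 6.37 and 8.33 UMIs at a score of 0, 6.86 and 9.38 at 2, 7.94 and 11.5 at 3 to 4, and 11.8 and 15.3 at 5 to 7 in mock-treated and DAC-treated cells. Without *TUBB4B* these became 5.32 and 5.07, 5.74 and 5.90, 6.80 and 7.68, and 10.75 and 10.8, so most of the difference at like scores was that of *TUBB4B*. *CDC20* had 50 UMIs over 1006 mock-treated cells but 114 over 390 DAC-treated cells, a ratio per cell of 5.88 (4.18 to 8.37), and *CKS2* had a ratio of 2.25 (1.95 to 2.60). *CCNB2*, with 127 UMIs against 16, had a ratio of 0.325 (0.180 to 0.548), and *CKS1B*, with 1492 against 230, had 0.398 (0.345 to 0.457). In mock-treated cells *CKS1B* was only 2.43 times higher in G2/M cells than in other cells, and it was detected in 71.3% of mock-treated cells low in both programs, against 33.6% of DAC-treated ones.

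The contrast between G2/M and other cells was smaller in the DAC-treated library. The level in G2/M cells was a median of 25.1 times that in other cells over the 50 genes in mock-treated cells and 12.8 times in DAC-treated cells. It was lowest for *CTCF*, at 1.76 and 1.72 times, and high for *HMMR*, at 94.3 and 27.3 times. *CDCA3* had 134 UMIs in the 382 mock-treated G2/M cells and 1 UMI in the 1006 others, and 13 UMIs in the 390 other DAC-treated cells. Free RNA in the droplets can place a UMI in a cell that does not make the transcript. The other DAC-treated cells also lay nearer the cut, as given above, and the part of either was not tested. At 10000 UMIs per cell, a gene was detected in a median of 18.3% of mock-treated and 39.3% of DAC-treated cells over the 50 genes, and in 3.98% and 5.10% of the cells low in both programs, which had medians of 29659 and 38755 UMIs before the draw. Across the 50 genes, the log2 ratio over all cells and the log2 G2/M-to-other ratio in mock-treated cells had a Pearson correlation of 0.52, a description over genes that share the same cells and, through the mock-treated library, the same counts.

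Genes that regulate this program were looked at beside it. Of 19 listed regulators, 15 had enough UMIs, 9 were higher and 1 was lower by the rule (60.0% and 6.67%), beside 43.4% and 21.7% of all genes, with a median log2 ratio of 0.65 beside 0.22. *FOXM1* and *MYBL2*, activators that join the MuvB complex, *MYBL2* first in S phase and *FOXM1* later in G2, had 0.146 and 0.428 UMI and 0.215 and 0.602 UMI per cell, log2 ratios of 1.55 and 1.48. The CDK-activating phosphatases differed, with *CDC25A* at 0.0346 and 0.208 UMI (log2 ratio 2.59) and *CDC25B* at 0.909 and 0.602 (-0.59). The inhibitory kinases *PKMYT1* and *WEE1* had log2 ratios of 1.82 and 0.62, and the CDK inhibitor *CDKN1A* had 0.953 and 1.81 UMIs (0.92). These values are over all cells. Within G2/M cells the log2 ratios were 0.33 for *FOXM1*, 0.28 for *MYBL2*, 1.83 for *CDC25A*, and -0.51 for *CDC25B*. They were 0.63 for *PKMYT1*, -0.09 for *WEE1*, and 0.30 for *CDKN1A*, and the median of measured regulators was 0.18, beside 0.16 for all genes. The 39 scoring genes had a median log2 ratio of 1.21, with 37 higher (94.9%), and 40 measured S-phase genes had a median of 1.11, with 39 higher (97.5%). Of 25 housekeeping genes, 14 were higher (56%) and 3 were lower, with a median of 0.40.

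The larger share of G2/M cells in the DAC-treated library was seen at each depth and each level of mitochondrial UMIs. Among cells with up to 20% mitochondrial UMIs, G2/M was called in 31.3% of 1030 mock-treated cells and 84.0% of 698 DAC-treated cells. With more than 20% and up to 50% the shares were 11.6% and 52.8%, and above 50% they were 32.2% and 54.3%, over 90 and 173 cells. Among cells with 10000 to 20000 UMIs before the draw, the shares were 22.4% and 55.7%. They were 16.98% and 64.3% from 20000 to 40000 UMIs and 51.1% and 75.5% with 40000 UMIs or more. The mean level of the 50 genes was also higher in DAC-treated cells in each of these ranges, as 29.6 and 72.9 UMIs with up to 20% mitochondrial UMIs and 45.0 and 62.4 with 40000 UMIs or more.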

How the data were processed

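scRNA-seq was conducted in 1 library per condition. Reads were mapped to hg38 with the Cell Ranger software by the authors, who deposited raw UMI counts of every gene in every cell. A filter on cells is not given in the sources used here. The members and gene lists were chosen with earlier results of these data known. From the counts, 10000 UMIs were drawn without replacement from each cell with at least as many (Python 3.11.15, numpy 2.4.6, scipy 1.17.1). Doublets were not called, since cells of 1 line carry no marker of them, and cells in the top 5% by UMIs were left out as an alternative. The libraries shared 12 barcodes. Genes reaching 100 UMIs in at least 1 library were read. Ratios have exact conditional binomial intervals, levels exact Poisson, and shares Clopper-Pearson intervals, all at the 95% level. G2/M cells were called with 39 of 40 listed classifier symbols (1 was not found, having been misspelled in the list), none of them among the 50 genes, at the Otsu cut on log2(sum + 1) over both libraries. The difference in means was split into 3 terms, each weighted by the mean of both libraries. For 1 regulator outside the 50 genes, values are not reported here and do not enter the counts. All 50 genes were accounted for, and of each role those with the most UMIs, and the 5 highest and 5 lowest ratios, were given in full. The ranges of the score, *TUBB4B* alone, and the shares by depth were looked at after values were seen. Positions came from GENCODE release 44. The computations were tested on simulated data. No p-value was computed, as cells of 1 library are not replicates.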

Additional observations from a re-analysis of the deposited data

Results flagged for a closer look

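The cells left out of the comparisons for having fewer than 10000 UMIs also held transcripts of the 50 genes, and in the DAC-treated ones their share was above that in the mock-treated ones. In these cells the 50 genes made up 0.102% of the UMIs of 395 mock-treated cells (exact 95% interval 0.0971 to 0.107%) and 0.390% of the UMIs of 458 DAC-treated cells (0.378 to 0.401%). The cells differed in another way, as mitochondrial genes took a median of 62.0% of the UMIs in the mock-treated ones and 13.3% in the DAC-treated ones, and the part of this in the difference was not tested.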

How the results depend on the processing

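No paired analysis was possible because each condition had 1 library and the labels give no replicate numbers. The median log2 ratio of the 50 genes, 1.12 at equal depth, was 0.89 with CPM of summed UMIs, 1.15 when CPM was averaged over cells, and 0.65 with median-of-ratios scaling, which set the median of all genes to -0.00. It was 1.40 at 1007 UMIs per cell, 1.17 at 5000, and 1.08 at 20000. Leaving out cells with more than 50% or 20% mitochondrial UMIs gave 1.17 and 1.32, omitting the top 5% of cells by UMIs gave 1.21, and another random draw gave 1.08. Removing mitochondrial genes and then drawing 8000 UMIs per cell, which kept 1297 mock-treated and 1147 DAC-treated cells, gave 1.17. At 1007 UMIs, 23 of the 24 genes that could be read were higher by the rule of a ratio at least 25% above 1. The difference in the share of G2/M cells, 42.3 percentage points, was 33.8 at 1007 UMIs, 52.6 with up to 20% mitochondrial UMIs, 46.5 without mitochondrial genes at 8000 UMIs, 37.7 with a cut found in each library, 38.3 with every other scoring gene (the even ones), and 27.8 with a cut 3 times higher. The ratio within G2/M cells, 1.01, was 0.994 at 1007 UMIs, 0.983 at 20000, 1.09 with up to 20% mitochondrial UMIs, 1.05 without the top 5% by UMIs, and 1.04 without mitochondrial genes at 8000 UMIs. It was 0.992 with a cut 1.5 times higher, 1.11 with one 1.5 times lower, 1.09 with a cut for each library, 0.977 with cells called by the 50 genes themselves (each left out of its own call), 0.986 and 1.10 with the odd and even scoring genes, 0.902 with a cut 3 times higher, and 0.947 without *TUBB4B*. So the side of 1 on which the sum within G2/M cells lies depends on the setting. In other cells, the ratio of 1.59 was 2.56 at 1007 UMIs, 1.85 at 5000, 1.76 and 1.999 with up to 50% and 20% mitochondrial UMIs, and 1.77 without mitochondrial genes at 8000 UMIs. It was 1.72 and 1.495 with a cut 1.5 times higher and lower, 1.75 with a cut for each library, 1.66 with cells called by the 50 genes, 1.80 with the even scoring genes, 2.11 with a cut 3 times higher, and 1.246 without *TUBB4B*. Of 550 log2 ratios of single genes under these settings, 12 differed in sign from the value reported, all of *CKS1B* (above 0 in 9 of 11 settings), *CCNB2* (-0.18 with median-of-ratios scaling and -0.17 at 1007 UMIs), and *CDC25C* (-0.0089 at 1007 UMIs). Within G2/M cells, 62 of 750 did, over 25 genes, so the side on which genes with small ratios lie there depends on the setting. Of the 19 genes counted as higher or lower in G2/M cells, 3 were among them, *AURKA* with -0.0103 at 1007 UMIs and -0.12 with a cut 3 times higher, *NEK2* with 0.11 at 1007 UMIs, and *LBR* with 0.0081 without the top 5% by UMIs. The cut 3 times higher, the second draw, and the values without *TUBB4B* were added after the data were seen, and the causes were not tested. Depth limits the rare genes, since *CDC25C* had 84 and 124 UMIs.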
